A study of Mus musculus with 6 samples.

Results

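The proteasome subunit genes of the mouse lens epithelium were followed across cataract surgery: 36 genes that encode the core, cap and activator subunits, out of 56940 genes listed. They were taken by name: Psma1 to Psma7, Psmb1 to Psmb7, Psmc1 to Psmc6, Psmd1 to Psmd4, Psmd6 to Psmd8, Psmd11 to Psmd14, Psme1 to Psme4 and Psmf1. All 36 had an entry, and all 36 passed the filter on low counts. RNA came from lens capsules with their lens epithelial cells (LEC), from wildtype C57BL/6 mice whose fiber cell mass had been taken out through an incision at the front of the lens. Capsules harvested 5 days after this operation (LEC 5 days, 3 libraries) were compared with capsules harvested at once (LEC 0 h, 3 libraries), each library being a pool of 5 capsules. The 0 h capsules were from the second eye of mice whose first eye had been operated on 5 days before, so both groups came from operated animals, and the age of the mice is not given in the sources used here.

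The proteasome is the cell's main machine for breaking down proteins tagged with ubiquitin. Its barrel-shaped core holds outer rings of α subunits (Psma genes), which gate the entry, and inner rings of β subunits (Psmb genes), some of which cut peptides. A regulatory cap sits on the end: its base of ATPases (Psmc genes) and scaffold proteins unfolds substrates, and its lid (most Psmd genes) receives them and removes ubiquitin. Other activators (Psme genes) can take the place of the cap, and immune signals replace the cutting β subunits with inducible ones. In the lens, this pathway is studied for the turnover of regulatory and damaged proteins in the epithelium and in young fiber cells.

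The libraries held 6207387, 7509954 and 8682659 gene counts at 5 days and 7709815, 9774343 and 8707928 at 0 h, and the lowest count of any of the 36 genes in any library was 90. Levels are given as CPM, counts scaled to the size of each library after TMM normalisation. Replicate 2 at 0 h stood apart for these genes: it was the highest 0 h library for 25 of the 36, and for 35% of all tested genes. Markers of other cells also moved. All 12 macrophage and leukocyte markers rose, and their summed level was 537 to 753 CPM at 5 days and 17.4 to 35.5 CPM at 0 h. The 5 lens fiber markers tested fell, with a summed level of 5550 to 17970 CPM at 5 days and 69556 to 82048 CPM at 0 h, and the 6 retina markers fell, with 28.6 to 83.3 CPM at 5 days and 466 to 714 CPM at 0 h. The 3 neutrophil markers and 3 of the 4 endothelium markers tested also rose, no erythroid marker passed the filter, and of 5 pigment cell markers 1, Rpe65, fell and had 0 counts at 5 days. All 5 lens epithelium markers were detected at both times, where Pax6 rose, Foxe3 and Cdh1 fell and Six3 and Sox2 were not called. In bulk RNA, fewer cells of a type and less RNA per cell cannot be told apart, and the part of these shifts in the values below was not tested.

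The proteasome subunit genes that changed did so by less than 2-fold and in both directions. Of the 36 genes, 7 rose and 5 fell at 5 days relative to 0 h (edgeR's quasi-likelihood test, Benjamini-Hochberg adjusted p under 0.05), that is 33.3%, where 47.6% of all 14676 tested genes were called. By direction, 19.4% of the subunit genes rose, against 25.1% of all tested genes, and 13.9% fell, against 22.5%. Scaled by total library size, 12 subunit genes rose and 3 fell, and 4438 of all tested genes rose and 2613 fell. The libraries of the 2 times did not overlap for 17 of the 36 genes, and for 58.1% of all tested genes. The 5 day libraries were the higher ones for 9 of the 36, and for 29.9% of all tested genes. Without replicate 3 at 0 h 3 subunit genes rose and 4 fell, without replicate 1 at 0 h 4 rose and 8 fell, and 3 fell without replicate 1 at 5 days or replicate 2 at 0 h. The log2 fold changes of 5 days over 0 h ran from -0.91 in Psmc5 to 0.73 in Psma5; their median was 0.05 and that of all tested genes was -0.0063. No subunit gene passed with a change of 2-fold or more, whereas 25.4% of all tested genes did. At an unadjusted p under 0.05, 17 of the 36 were counted by edgeR, and the number with a change of 2-fold or more was also 0 by edgeR, by DESeq2 and by limma-voom.

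**Figure D1:**
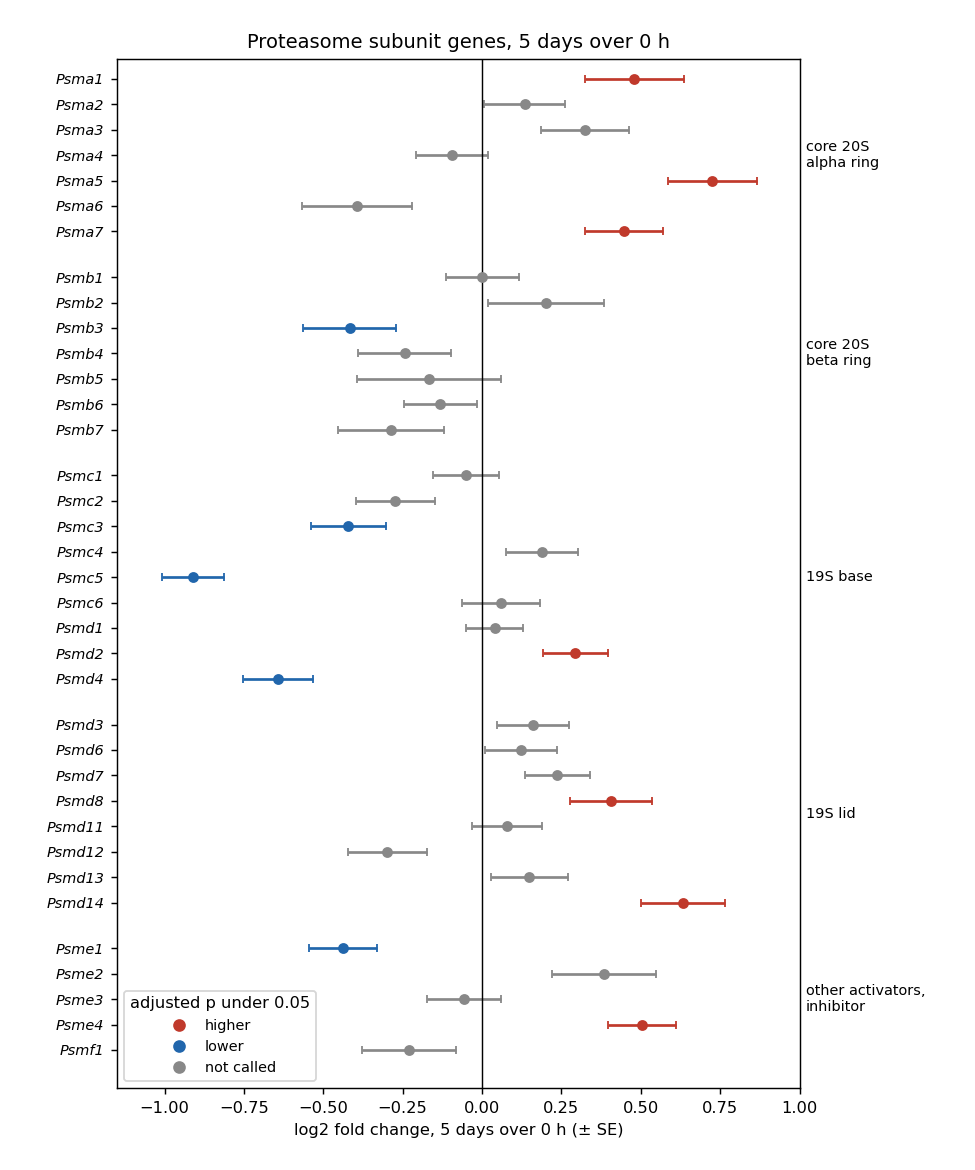
Log2 fold change of 5 days over 0 h (points) with its standard error (bars) for each of the 36 proteasome subunit genes, ordered by sub-complex; colour gives the call at an adjusted p under 0.05. All points lie between -0.91 and 0.73, with 7 genes higher and 5 lower.

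The summed level of the 36 genes was 2104 ± 47.9 CPM at 5 days and 2135 ± 159 CPM at 0 h (SD, n = 3 each). The sums by library were 2072, 2080 and 2159 CPM at 5 days and 2003, 2312 and 2091 CPM at 0 h, so the times overlapped. Sub-complexes differed in the direction of their means. The cap base summed to 755 ± 26.3 CPM at 5 days and 872 ± 48.7 CPM at 0 h, with no overlap between the times. The lid summed to 439 ± 11.4 CPM at 5 days and 389 ± 30.4 CPM at 0 h, also with no overlap. The α ring stood at 318 ± 26.8 CPM at 5 days and 277 ± 28.5 CPM at 0 h, the β ring at 235 ± 5.69 CPM at 5 days and 260.03 ± 38.6 CPM at 0 h, and the remaining activators with the inhibitor at 356 ± 19.6 CPM at 5 days and 337 ± 15.9 CPM at 0 h, each with overlapping libraries. These sums are weighted toward the most abundant genes and carry no test. Scaled by total library size instead, the median log2 fold change of all tested genes lay 0.13 higher, and the ratio of summed levels (5 days over 0 h), 0.985 with TMM, was 1.08. Under that scaling the base libraries overlapped, at 735 to 819 CPM at 5 days and 798 to 862 CPM at 0 h, while the lid (441 to 476 CPM at 5 days and 353 to 395 CPM at 0 h), the α ring (306 to 367 CPM at 5 days and 240.2 to 286 CPM at 0 h) and the activators (355 to 381 CPM at 5 days and 313 to 331 CPM at 0 h) did not.

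**Figure D2:**
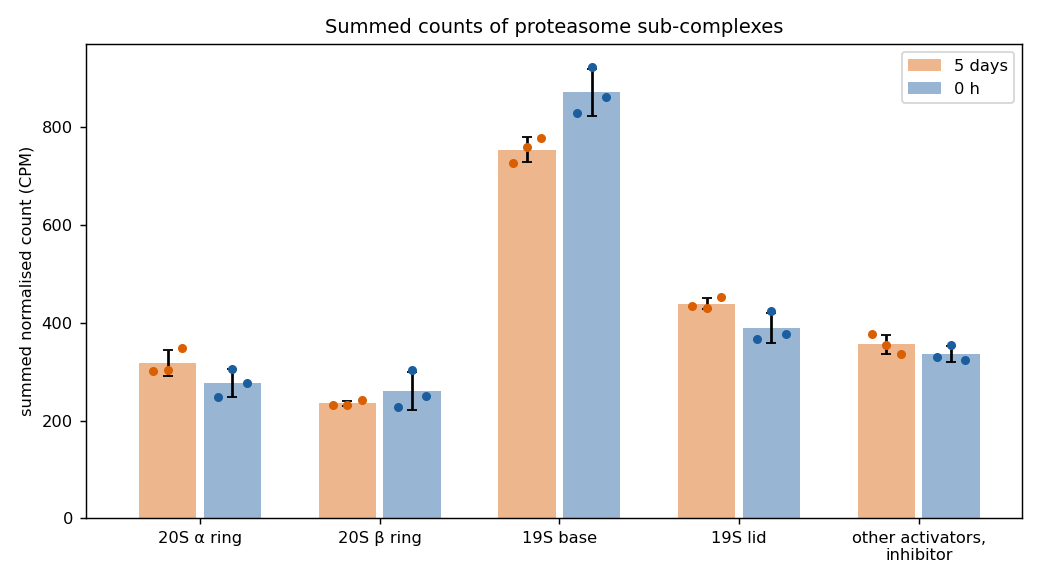
Summed normalised counts (CPM, linear axis from 0) of each proteasome sub-complex at 5 days and 0 h; bars are means, error bars SD over 3 libraries, and points single libraries. With this TMM scaling the base is lower in every 5 day library and the lid higher, while the other sums overlap. With total library size, which is not plotted, the base and β ring sums overlap and the other 3 do not.

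In the α ring, 3 of 7 genes rose (42.9%, against 25.1% of all tested genes) and the median log2 fold change was 0.32. Psma5, an α-ring subunit, had 33.9, 28.1 and 28.6 CPM at 5 days, against 18.5, 18.4 and 17.8 CPM at 0 h. Every 5 day library thus lay above every 0 h library, and the log2 fold change of 0.73 (SE 0.14, adjusted p = 0.000977) was the highest among the 36 genes. Of the 50-base stretches in annotated Psma5 transcripts, 50% also occur in transcripts of other genes, chiefly the gene Gm8394, whose own counts were 1, 0 and 0 at 5 days and 0 in each 0 h library. The Psma5 counts are therefore uncertain. Psma7 had 59.2, 56.4 and 62.3 CPM at 5 days, against 41.2, 50.7 and 38.5 CPM at 0 h, without overlap, a log2 fold change of 0.45 (SE 0.12, adjusted p = 0.00966), which was 0.36 and not called without replicate 3 at 0 h. Psma1 had 26.1, 31.4 and 29.8 CPM at 5 days, against 18.2, 24.9 and 19.4 CPM at 0 h, a log2 fold change of 0.48 (SE 0.16, adjusted p = 0.0240). The Psma1 libraries did not overlap, but the call was lost without replicate 2 at 5 days (0.43), replicate 1 at 0 h (0.38) or replicate 3 at 0 h (0.42). Psma2, Psma3, Psma4 and Psma6 were not called, at 0.13, 0.32, -0.09 and -0.39. Psma3 was called higher without replicate 2 at 5 days (0.43), with total library size (0.46) and with no filter (0.33). Psma6 was called lower without replicate 3 at 5 days (-0.55) or replicate 1 at 0 h (-0.53).

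The β ring, which holds the cutting sites, had 1 called gene of 7, which fell (14.3%, against 22.5% of all tested genes), and a median log2 fold change of -0.17. Psmb3, a β subunit without a cutting site of its own, had 21.5, 19.1 and 22.0 CPM at 5 days, against 23.8, 30.2 and 29.4 CPM at 0 h. Its 5 day libraries all lay below those of 0 h, with a log2 fold change of -0.42 (SE 0.15, adjusted p = 0.0339). Of its 50-base stretches 17.8% also occur in other genes. That call was lost without replicate 1 (-0.44) or 2 (-0.35) at 5 days and without replicate 2 (-0.36) or 3 (-0.38) at 0 h. The standard cutting subunits were not called. Psmb5, the chymotrypsin-like site and the target of clinical proteasome inhibitors, had 14.3, 15.9 and 11.8 CPM at 5 days and 13.1, 21.2 and 12.8 CPM at 0 h, a log2 fold change of -0.17 (SE 0.23), which was 0.11 without replicate 2 at 0 h. Psmb6, the caspase-like site, had 52.8, 58.02 and 58.03 CPM at 5 days and 60.2, 70.0 and 54.8 CPM at 0 h (log2 fold change -0.13, SE 0.11). Psmb7, the trypsin-like site, had 33.7, 27.8 and 31.8 CPM at 5 days and 29.4, 47.2 and 36.7 CPM at 0 h (log2 fold change -0.29, SE 0.17), and it was called lower, at -0.44, without replicate 1 at 0 h. For all 3 the times overlapped. Of the 50-base stretches of Psmb5, 54.1% also occur in other genes, chiefly Gm3375, so its counts are uncertain. Psmb1, Psmb2 and Psmb4 had log2 fold changes of 0.00057, 0.20 and -0.24 and were not called.

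The cap base held the largest falls; 3 of its 9 genes fell (33.3%, against 22.5% of all tested genes) and 1 rose. Psmc5, an ATPase of the ring that unfolds substrates, had 55.5, 57.6 and 54.3 CPM at 5 days, against 95.8, 110.4 and 108 CPM at 0 h. The groups were far apart, and the log2 fold change was -0.91 (SE 0.10, adjusted p = 1.1e-05). Psmd4, a ubiquitin receptor of the cap and the subunit gene of highest level at 0 h, had 112, 137 and 107 CPM at 5 days, against 174, 193 and 189 CPM at 0 h. Its times did not overlap either, with a log2 fold change of -0.64 (SE 0.11, adjusted p = 0.000437). Neither Psmc5 nor Psmd4 shares a 50-base stretch with another annotated gene. Psmc3, another ATPase of the ring, had 83.9, 94.6 and 102 CPM at 5 days, against 118, 145 and 113 CPM at 0 h, a log2 fold change of -0.42 (SE 0.12, adjusted p = 0.0109). The Psmc3 call was lost without replicate 1 at 5 days (-0.36), without replicate 2 at 0 h (-0.31) and with total library size (-0.29). Psmd2, a scaffold of the base that docks ubiquitin carriers, was the base gene that rose, with 158, 156 and 179.8 CPM at 5 days, against 124, 145 and 134 CPM at 0 h. Its 50-base stretches occur in the copy Gm5422 for 17.3%. Its log2 fold change was 0.29 (SE 0.10, adjusted p = 0.0315), and the call was lost without replicate 1 (0.32) or 3 (0.21) at 5 days and without replicate 1 (0.23) or 3 (0.28) at 0 h. The scaffold Psmd1 and the ATPases Psmc1, Psmc2, Psmc4 and Psmc6 were not called, at log2 fold changes of 0.04, -0.05, -0.27, 0.19 and 0.06. Psmc4 was called higher with total library size (0.32). The differences among the ATPase genes, whose proteins share a ring, were not tested.

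In the lid, 2 of 8 genes rose, that is 25% and near the 25.1% of all tested genes, and the median log2 fold change was 0.16. Psmd14, the enzyme that cuts ubiquitin off the substrate, had 28.6, 32.02 and 34.9 CPM at 5 days, against 20.9, 20.6 and 20.3 CPM at 0 h. The times were well separated, with a log2 fold change of 0.63 (SE 0.13, adjusted p = 0.00186). Psmd8, a structural subunit of the lid, had 58.7, 60.7 and 78.1 CPM at 5 days, against 45.9, 55.2 and 48.0 CPM at 0 h, a log2 fold change of 0.41 (SE 0.13, adjusted p = 0.0224). Replicate 3 at 5 days was the highest Psmd8 library, and the call was lost without it (0.25), as it was without replicate 1 (0.35) or 3 (0.37) at 0 h. Psmd3, Psmd6, Psmd7, Psmd11, Psmd12 and Psmd13 were not called, with log2 fold changes from -0.30 in Psmd12 to 0.24 in Psmd7. Psmd7 was called higher without replicate 2 at 5 days (0.30) and with total library size (0.37). Psmd3 was called higher with total library size (0.29), and Psmd12 was called lower without replicate 1 at 0 h (-0.39).

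Among the other activators, Psme4 rose and Psme1 fell. Psme1 and Psme2 encode the partners of one ring-shaped activator that interferon is known to induce. Psme1 had 92.0, 83.3 and 86.8 CPM at 5 days, against 106, 134 and 114 CPM at 0 h, with no overlap, a log2 fold change of -0.44 (SE 0.11, adjusted p = 0.00489). Psme2 had 25.0, 23.9 and 33.4 CPM at 5 days and 18.9, 21.8 and 22.4 CPM at 0 h. These libraries did not overlap either, but at a log2 fold change of 0.38 (SE 0.16, adjusted p = 0.0711) Psme2 was not called; it was called without replicate 2 at 5 days (0.49) and with total library size (0.52). Psme2 shares 28.3% of its 50-base stretches with the copy Psme2b, so its counts are uncertain. The difference between the 2 partners was not tested. Psme4, a large single-chain activator found mainly in the nucleus, had 179.7, 178 and 148 CPM at 5 days, against 127, 119.7 and 109.7 CPM at 0 h. All 5 day libraries lay above those of 0 h, with a log2 fold change of 0.50 (SE 0.11, adjusted p = 0.00202). Psme3, the nuclear relative of Psme1 and Psme2, had 56.2, 45.8 and 48.8 CPM at 5 days and 54.7, 54.6 and 47.3 CPM at 0 h and was not called (log2 fold change -0.06, SE 0.12). Psmf1, a regulator first described as a proteasome inhibitor, had 23.71, 23.73 and 20.6 CPM at 5 days and 24.2, 24.8 and 30.6 CPM at 0 h and was not called (log2 fold change -0.23, SE 0.15), although its times did not overlap.

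**Figure D3:**
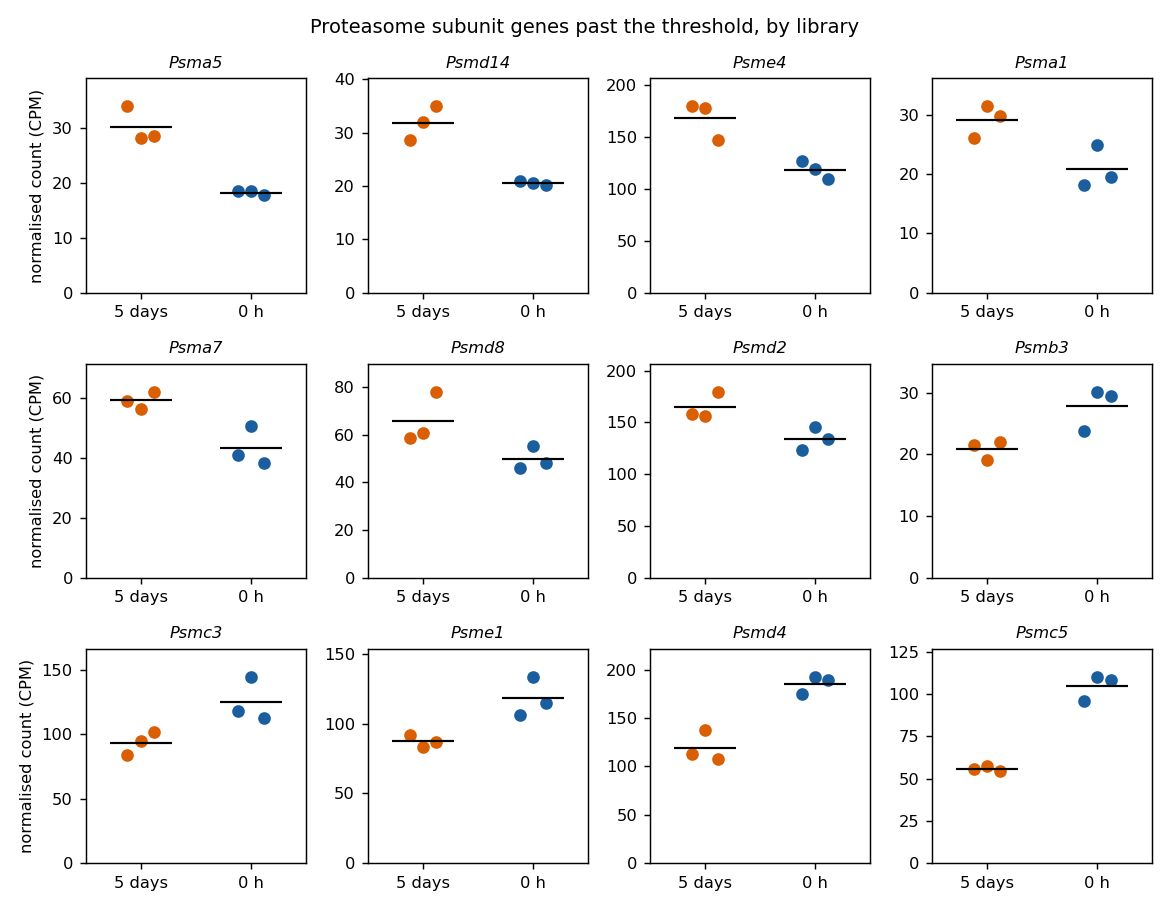
Normalised counts (CPM, linear axes from 0) of the 12 called proteasome subunit genes in each library at 5 days and 0 h, ordered from the largest rise to the largest fall; lines mark the mean of 3 libraries. In each panel the 2 times do not overlap.

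Start-site sequences from RefSeq (build GRCm38.p6, 250 bases before to 50 after the start) were found for 30 of the 36 genes as 33 windows; Psmb1, Psmb2, Psmb7, Psmc3, Psmd3 and Psmd7 had none. They were searched on both strands for the antioxidant response element bound by Nfe2l1 and Nfe2l2 (TGACNNNGC), the interferon-stimulated response element (GAAA, any 2 bases, GAAA), the gamma-activated site (TTCNNNGAA) and the CCAAT box (CCAAT). The antioxidant element letters were in 15.2% of the 33 windows and in 12.4% of all 32841 windows of this length, and the CCAAT letters in 33.3% and 37.4%. Among genes that rose, 1 of 7 windows held the antioxidant element, that of Psme4, and among genes not called 4 of 22 did, with the cutting subunits Psmb5 and Psmb6 among them. The interferon element letters were in 3 of the 33 windows, those of Psmb3, Psmd4 and Psme1, which are 3 of the 4 windows of genes that fell, against 3.44% of all windows. The 3 windows of the inducible subunits held 0 matches to it. The gamma-activated site was in the window of Psmd2, which rose, and in that of inducible Psmb8, against 8.3% of all windows. The windows of the 3 genes that fell and hold the interferon element, of Psme4 and of Psmb8 are shown on the gene's strand, 5′ to 3′, with the match in capitals (interferon element in the first 3, antioxidant element in Psme4, gamma-activated site in Psmb8). They lie at chr3:95042565-95042864 (minus strand) for Psmd4, chr14:55578244-55578543 (plus) for Psme1, chr11:97703184-97703483 (plus) for Psmb3, chr11:30771525-30771824 (plus) for Psme4 and chr17:34197945-34198244 (plus) for Psmb8.
Psmd4: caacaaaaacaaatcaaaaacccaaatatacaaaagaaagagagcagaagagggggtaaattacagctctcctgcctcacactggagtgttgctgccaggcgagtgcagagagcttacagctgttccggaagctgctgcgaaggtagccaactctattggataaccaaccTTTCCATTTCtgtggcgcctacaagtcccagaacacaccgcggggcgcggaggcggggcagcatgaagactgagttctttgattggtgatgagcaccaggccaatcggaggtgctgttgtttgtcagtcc
Psme1: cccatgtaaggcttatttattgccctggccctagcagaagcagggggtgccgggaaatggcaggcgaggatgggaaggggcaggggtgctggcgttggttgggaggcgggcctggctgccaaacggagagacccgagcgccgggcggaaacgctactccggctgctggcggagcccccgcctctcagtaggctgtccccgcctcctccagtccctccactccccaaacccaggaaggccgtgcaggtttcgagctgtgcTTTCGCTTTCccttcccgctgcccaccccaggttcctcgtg
Psmb3: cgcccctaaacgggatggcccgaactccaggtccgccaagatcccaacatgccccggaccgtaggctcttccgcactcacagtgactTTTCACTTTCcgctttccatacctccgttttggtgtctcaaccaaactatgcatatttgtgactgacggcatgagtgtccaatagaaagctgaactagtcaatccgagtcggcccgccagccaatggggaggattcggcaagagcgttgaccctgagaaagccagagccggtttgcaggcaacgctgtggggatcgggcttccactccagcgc
Psme4: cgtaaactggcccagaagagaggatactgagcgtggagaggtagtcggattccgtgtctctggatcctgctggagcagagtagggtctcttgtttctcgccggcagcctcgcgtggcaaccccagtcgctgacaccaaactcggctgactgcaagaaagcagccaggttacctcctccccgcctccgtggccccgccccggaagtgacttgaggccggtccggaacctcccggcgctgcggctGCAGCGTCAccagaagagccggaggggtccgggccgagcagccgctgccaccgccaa
Psmb8: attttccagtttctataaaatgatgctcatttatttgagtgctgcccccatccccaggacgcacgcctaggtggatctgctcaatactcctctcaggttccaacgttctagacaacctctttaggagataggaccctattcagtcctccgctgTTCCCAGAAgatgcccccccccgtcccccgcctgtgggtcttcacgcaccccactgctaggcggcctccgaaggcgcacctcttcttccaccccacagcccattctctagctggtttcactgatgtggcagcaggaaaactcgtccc

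The match begins 80 bases before the annotated start in Psmd4, 163 before it in Psmb3 and 9 past it in Psme1, and all 3 are read from the strand opposite to the gene. In Psme4 it begins 7 bases before the start, and in Psmb8 97 bases before it. The counts do not bear on whether these letters are bound.

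Of the 12 calls, 6 held under each of the 14 other settings tried: the rises of Psma5, Psmd14 and Psme4 and the falls of Psmc5, Psmd4 and Psme1. With each library left out in turn, the log2 fold change of Psmc5 ran from -0.98 to -0.88, that of Psmd4 from -0.75 to -0.58 and that of Psme1 from -0.52 to -0.34. The ranges were 0.63 to 0.78 for Psma5, 0.55 to 0.70 for Psmd14 and 0.44 to 0.58 for Psme4.

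Per length, the subunit genes were not expressed evenly. Divided by the length of annotated exons (GENCODE M21, union over transcripts), mean levels ran from 3.52 CPM per kb in Psmf1 to 42.3 CPM per kb in Psmd4 at 5 days, and from 4.12 CPM per kb in Psmf1 to 75.2 CPM per kb in Psmc5 at 0 h. The highest levels at 0 h were those of Psmc5, Psmd4, Psme1 and Psmc3, at 75.2, 66.0, 53.5 and 48.0 CPM per kb, and these are 4 of the 5 genes that fell. At 5 days the same genes stood at 40.1, 42.3, 39.5 and 35.8 CPM per kb, close to the uncalled ATPase Psmc1 at 39.6 CPM per kb and to Psmd2 at 40.8 CPM per kb. Of the 6 lowest genes at 0 h, Psma1 and Psmd14, at 7.06 and 7.30 CPM per kb, rose, and Psmf1, Psmd11, Psma2 and Psmc2, at 4.12, 8.36, 8.98 and 10.05 CPM per kb, were not called. Psmb3, which fell, stood at 12.1 CPM per kb. The SD over the 36 genes of the log2 level per kb was 0.833, 0.822 and 0.831 in the 5 day libraries and 0.952, 0.971 and 0.932 in the 0 h libraries. The order at 0 h and the change from 0 h share the same libraries, so this is a description without a test, and exon lengths depend on which transcripts are used.

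**Figure D4:**
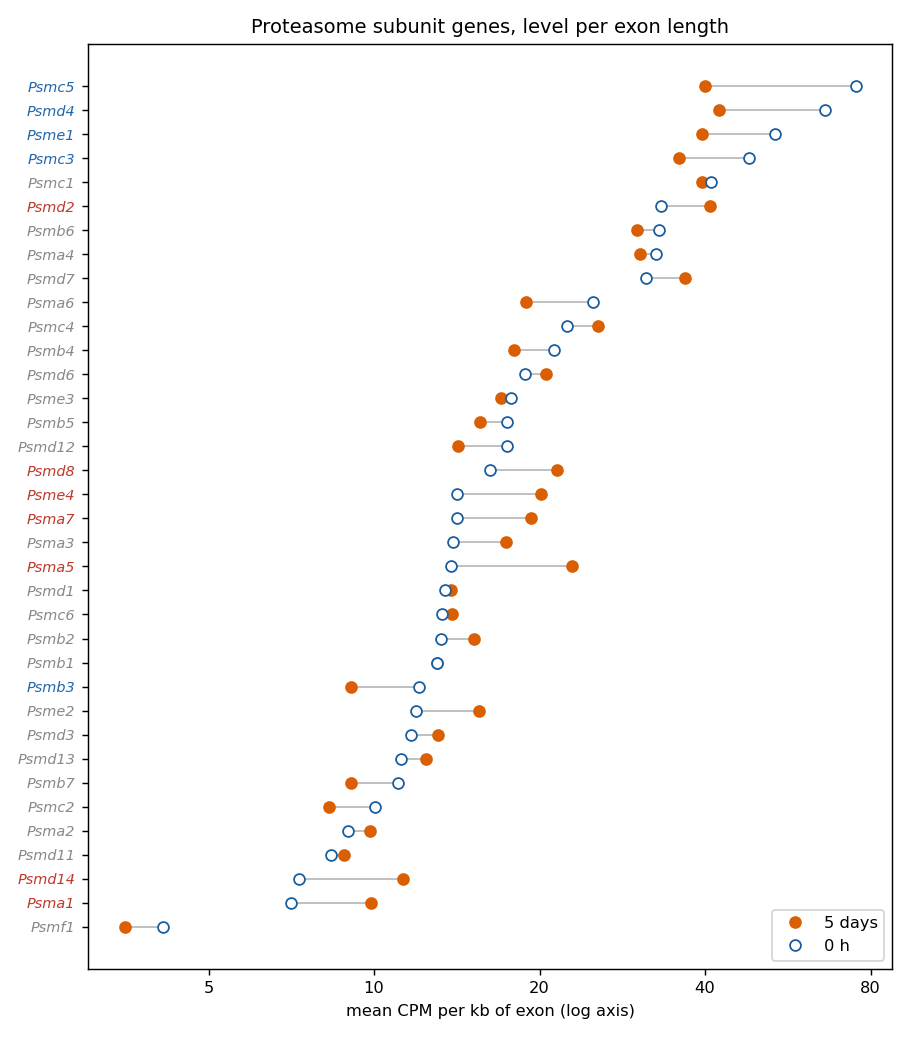
Mean level per kb of annotated exon (log axis) of the 36 proteasome subunit genes at 5 days (filled) and 0 h (open), sorted by the level at 0 h; gene names are red where the gene rose, blue where it fell and grey where it was not called. The 4 genes highest at 0 h all lie lower at 5 days, at 35.8 to 42.3 CPM per kb.

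Inducible subunits, which are close relatives of the standard cutting subunits and are typical of immune cells and of interferon signalling, rose for all 3 genes tested. Whether their changes differ from those of the standard genes was not tested. Psmb8, the counterpart of Psmb5, had 12.1, 8.67 and 15.9 CPM at 5 days, against 0.808, 0.878 and 1.43 CPM at 0 h, a log2 fold change of 3.53 (SE 0.37, adjusted p = 7.59e-06). Of its 50-base stretches 11.9% also occur in other genes. Psmb10, the counterpart of Psmb7, had 11.1, 7.16 and 9.85 CPM at 5 days, against 1.75, 1.76 and 3.93 CPM at 0 h (log2 fold change 1.91, SE 0.37, adjusted p = 0.000983). Psmb9, the counterpart of Psmb6, was detected with only 13, 11 and 14 reads at 5 days and 1, 0 and 3 reads at 0 h (log2 fold change 3.23, SE 0.76, adjusted p = 0.00393). With these few reads the size of the Psmb9 change depends on the libraries, from 2.63 without replicate 2 at 0 h to 4.43 without replicate 3 at 0 h. Per kb, Psmb8 made up 19.1 ± 6.87% of the summed Psmb8 and Psmb5 level at 5 days and 1.87 ± 0.928% at 0 h (SD, n = 3 each). For Psmb10 with Psmb7 the share was 37.4 ± 2.99% at 5 days and 11.8 ± 5.46% at 0 h, and for Psmb9 with Psmb6 it was 1.5 ± 0.407% at 5 days and 0.149 ± 0.169% at 0 h. The size of these shares depends on the exon lengths used. That of Psmb8 is also uncertain because 54.1% of the 50-base stretches of Psmb5 occur in other genes. The 12 macrophage and leukocyte markers rose in the same libraries where their median log2 fold change was 4.68, and their part in the rise of the inducible subunits was not tested. The 2 tissue-restricted core genes of the same list, Psmb11 and Psma8, did not pass the filter.

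**Figure D5:**
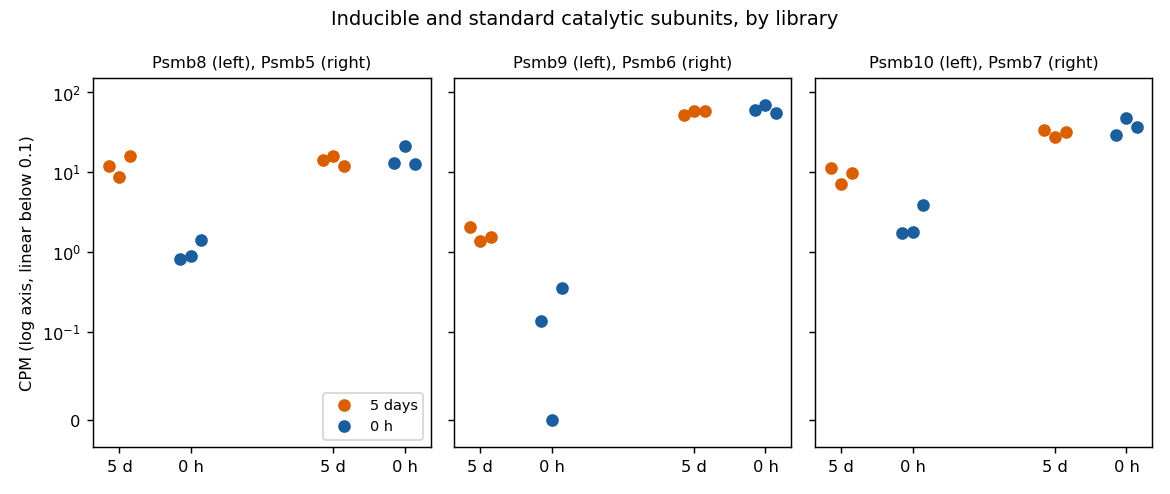
Normalised counts (CPM, log axis, linear below 0.1) by library for each inducible subunit (left pair of columns) and its standard counterpart (right pair), at 5 days and 0 h. The inducible genes are higher in each 5 day library than in any 0 h library, while the standard genes overlap between the times.

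The wider pathway was read from lists of related genes. Of 8 assembly chaperones tested, which build the core and the base, 0 were called by edgeR, against 47.6% of all tested genes. DESeq2 and limma-voom also called 0, and the median log2 fold change was -0.09. By edgeR 1 had an unadjusted p under 0.05, Psmg4, at -0.62 (SE 0.27, adjusted p = 0.0737). Some of these genes were low, such as Psmg3 at 1.17 CPM at 5 days and 1.68 CPM at 0 h (SE 0.52). Changes in them could therefore be missed. The core assembly factor Pomp stood at 48.1 ± 2.45 CPM at 5 days and 46.8 ± 4.77 CPM at 0 h (SD, n = 3 each). Of 14 proteasome-associated genes 6 rose (42.9%, against 25.1% of all tested genes), and the median was 0.13. Sem1, a small lid subunit outside the 36 genes, Zfand5, a proteasome activator, and Akirin2, needed for nuclear import of proteasomes, rose by 0.51, 0.54 and 0.50 on the log2 scale. Usp14, which trims ubiquitin at the cap, rose by 0.37, Txnl1, a cap-bound thioredoxin, by 0.31 and the ubiquitin ligase Ube3c by 0.25. The Usp14 call was lost without replicate 3 at 5 days or any 0 h library (0.28 to 0.36), the Txnl1 call without replicate 1 or 3 at 5 days or replicate 1 or 3 at 0 h (0.25 to 0.30) and the Ube3c call without any library other than replicate 2 at 5 days (0.23 to 0.26). All 3 calls were also lost with DESeq2 and with no filter.

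Genes of the pathway that controls proteasome transcription rose for 5 of 6 tested (83.3%, against 25.1% of all tested genes), with a median of 0.33; DESeq2 called 4 of the 6. Nfe2l1, the factor that raises proteasome genes when proteasome activity is short, had 431, 389.9 and 396 CPM at 5 days, against 308, 339 and 333 CPM at 0 h, a log2 fold change of 0.31 (SE 0.10, adjusted p = 0.0196). The times did not overlap, but the Nfe2l1 call was lost without replicate 1 at 5 days (0.26) or without replicate 1 (0.26), 2 (0.33) or 3 (0.32) at 0 h. Its relative Nfe2l2, known for the response to oxidants, had 56.5, 52.0 and 55.95 CPM at 5 days, against 24.9, 29.0 and 32.2 CPM at 0 h, clearly apart, with a log2 fold change of 0.93 (SE 0.12, adjusted p = 5.57e-05). The ligase Syvn1 and its partner Sel1l, which handle proteins leaving the endoplasmic reticulum, rose by 0.48 and 0.34. Ddi2, the protease that activates Nfe2l1, rose by 0.25, a call lost without any library other than replicate 1 at 5 days (0.22 to 0.26), and Ngly1 was not called at -0.25. Of the VCP segregase and its cofactors (6 genes, median 0.15), Faf2 rose by 0.50, Ubxn1 and Faf1 fell by 0.53 and 0.32, and Vcp, Ufd1 and Nploc4 were not called at 0.17, 0.13 and 0.29. The Faf1 call was lost without replicate 1 or 2 at 5 days or replicate 2 or 3 at 0 h (-0.33 to -0.27). With DESeq2 and with no filter, Ddi2 and Faf1 were not called either.

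Ubiquitin itself is made from several genes, of which Ubb and Rps27a fell. Ubb stood at 607 ± 33.6 CPM at 5 days and 864 ± 62.2 CPM at 0 h (SD, n = 3 each), a log2 fold change of -0.51 (SE 0.11). Rps27a, a fusion of ubiquitin with a ribosomal protein, fell by 0.90 (SE 0.12). Rps27a belongs to a family with many copies, so its counts are uncertain. The activating enzymes Uba1 and Uba6 were not called, at 0.13 and 0.20. Genes that handle class I peptides and their regulators, which share the interferon control of the inducible subunits, rose for 6 of 8, that is 75%, against 25.1% of all tested genes, with a median of 1.34. Among these, Tap1 and Tap2, the peptide transporter, rose by 1.62 and 1.37, and the regulators Irf1 and Nlrc5 rose by 1.72 and 1.31.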

How the data were processed

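Lens capsule RNA was sequenced from 3 libraries at 5 days and 3 at 0 h, made from total RNA with a stranded low-input kit per the labels' protocols. The authors deposited raw counts per Ensembl gene; the submitters' processing notes name HISAT2, HTSeq and edgeR and build GRCm39. No source used here gives versions, annotation release or strand setting, and overlapping genes and copies are therefore uncertain. The 5 HTSeq summary entries (32.3 to 42.6% of reads) were left out. Symbols came from GENCODE M21 for 91.2% of identifiers, and copies were sought as shared 50-base stretches among its transcripts.

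Genes passing edgeR's default filter (14676) were scaled with TMM and tested with edgeR 4.0.16 (R 4.3.3) by quasi-likelihood; p-values were adjusted (Benjamini-Hochberg) across the whole tested set, threshold 0.05. SE is that of the log2 fold change. Alternatives were DESeq2 size factors, total library size, TMM leaving out genes for crystallins, mitochondrial and ribosomal RNA, no filter, a filter of 2 CPM in 3 libraries, DESeq2 1.42.0, limma-voom (limma 3.58.1), a replicate block and each library left out. The test was checked on simulated counts with the same spread for all genes. It called 69.5% of 2-fold changes, 23.7% of 1.5-fold changes and 7 of 13399 unchanged genes. Every subunit gene is accounted for; libraries are given for called genes, cutting subunits, activators, inducible subunits and Nfe2l1 and Nfe2l2. Uncalled related genes that are named were chosen after their values were seen. Members and lists were chosen with earlier results of these data known. Paaf1 and Lim2, listed by symbol, were not analysed here, and some genes of the related lists are not reported here.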

Additional observations from a re-analysis of the deposited data

How the results depend on the processing

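The calls of Psma5, Psmc5, Psmd4, Psmd14, Psme1 and Psme4 held in all 14 alternatives; of the 12 calls, 7 to 12 were kept in any one. With total library size 12 subunit genes were higher and 3 lower, their median log2 fold change was 0.18 (all tested genes 0.12) and there was a ratio of summed levels of 1.08. Leaving out each library in turn gave 3 to 9 higher, 3 to 8 lower and a median of -0.0074 to 0.10. Replicate numbers, taken from the sample titles, gave no sign of pairs. Deviations of same-numbered libraries correlated at 0.039, -0.090 and 0.043, and 2 of 6 libraries correlated best with their own number. The library name of 5 day sample 2 carries the number 3, and that of 5 day sample 3 gives no time. With the numbering in doubt, neither these values nor the replicate block can show that the libraries are unpaired. The replicate block gave 7 higher and 5 lower; it lost Psmb3 (-0.41) and gained Psma6 (-0.40). Among related genes the block, DESeq2 and no filter each ended the calls of Usp14, Txnl1, Ube3c, Ddi2 and Faf1, with adjusted p of 0.0515 to 0.0633 under the block, 0.0731 to 0.110 with DESeq2 and 0.0772 to 0.128 with no filter. Psmb3 was also lost with DESeq2 (-0.41), no filter (-0.42) and total library size (-0.29).

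Directions of 8 uncalled genes turned, none of them called either way. With total library size the log2 fold change was 0.039 in Psma4, 0.0015 in Psmb6, 0.078 in Psmc1 and 0.072 in Psme3, and with the stricter filter -0.0050 in Psmb1. Over left-out libraries it ran from -0.098 to 0.070 in Psmb1, -0.30 to 0.11 in Psmb5, -0.12 to 0.013 in Psmc1, -0.059 to 0.12 in Psmc6, -0.0023 to 0.070 in Psmd1 and -0.15 to 0.010 in Psme3. The cause was not tested. With 3 libraries a time, the SE of a subunit gene was 0.089 to 0.23 on the log2 scale, which limits the changes that could be called.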

Other observations

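Few reads were counted for the copies of proteasome genes. Reads that match both a gene and its copy may be in neither count, so these values do not show how many reads the copies took. Psme2b, the copy of Psme2, had 4, 29 and 12 counts at 5 days and 2, 6 and 4 at 0 h. Gm6542, which shares 11.6% of the 50-base stretches of Psma4, had 22, 18 and 7 counts at 5 days and 16, 20 and 13 at 0 h, and Gm13835, which shares 15.4% of those of Psma3, had 8, 6 and 4 at 5 days and 4, 4 and 10 at 0 h. Of the 36 subunit genes, 14 shared no such stretch with another annotated gene, 14 shared under 10% and 8 shared 10% or more. Replicate 3 at 5 days was the highest 5 day library for 18 of the 36 genes, against 34.9% of all tested genes.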
